A study of Mus musculus with 15 samples.

Results

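The 8 genes described here, Mgmt, Alkbh2, Alkbh3, Mpg, Msh3, Msh6, Mlh3 and Pms2, encode enzymes that act on the DNA lesions made by temozolomide (TMZ) and related methylating drugs. They were taken by their names from the 4 expression tables of the study, which hold 17775 to 19035 genes, and all 8 were present in each table. Every library was made from total bone marrow of leukemic C57BL/6 mice after the fourth transplantation of cells carrying a retroviral MLL-AF9 fusion oncogene together with GFP. The 15 libraries form 5 groups of 3. Untreated 36S cells (GFI1 KI/KI) carry human GFI1 at the mouse Gfi1 locus, untreated 36N cells (GFI1 36N/36N) carry its 36N variant, and untreated KD cells (GFI1 KD/KD) express 10 to 20% of the human gene. The other groups are 36S and 36N cells that had received 50 µg/ml TMZ for 20 h before RNA was taken, called 36S TMZ and 36N TMZ below.

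The leukemias began as lineage-depleted cells that were transduced, sorted for GFP and given to mice irradiated with 7 and 3 Gy. Later recipients had received 3 Gy, so host cells could remain in the total marrow, and no library was sorted before RNA extraction. Ages and sexes are not in the labels. It is also not stated whether the mice of a group carried 1 primary leukemia or several, so the p-values measure the spread between these libraries, which may not be that between leukemias. No table analysed here holds 36S cells with and without TMZ, or KD cells with TMZ. Libraries with and without the drug could be compared within 1 table for 36N cells alone. No group is labelled as given vehicle, so effects of the drug and of any other handling cannot be told apart.

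Temozolomide breaks down to a species that methylates DNA bases. The methyl group on the oxygen of guanine is removed by MGMT, which takes it onto itself and is used up in doing so. Where it stays, the modified guanine pairs with thymine in replication, and mismatch repair then recognises the pair. MSH6 and MSH3 each combine with a common MutS partner, the first reading single mismatches and the second larger loops. PMS2 and MLH3 likewise combine with a common MutL partner and cut the strand to be replaced. Methylated ring nitrogens are handled elsewhere: the glycosylase MPG removes methylated adenine and guanine and hands the gap to base excision repair, while the dioxygenases ALKBH2 and ALKBH3 oxidise the methyl group away, the first mostly in double-stranded DNA and the second in single strands.

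Values are the authors' normalized counts, and libraries are named by the numbers in their titles (36S 1 to 3, 36N 4 to 6, KD 7 to 9). In units of 1e6, column totals ran from 11.27 to 13.03 in the untreated tables, from 15.69 to 18.29 in the table that joins treated and untreated 36N cells and from 22.25 to 24.26 in the table of TMZ libraries. The number of reads behind a value is unknown. The row with the mouse symbol Gfi1 was read in the table of 36N cells, at 505, 565 and 367 without TMZ and at 723, 504 and 555 with it. How reads of the human gene enter this row is not stated, so it cannot be taken as the level of the variant. The row was not analysed here in 36S or KD cells, so the KD label has no check from that gene.

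Several libraries stood apart. The Y-linked genes Ddx3y and Eif2s3y were at 0 in library 2 of 36S TMZ, and in library 5 of 36N TMZ Ddx3y was at 0 and Eif2s3y at 2.07, whereas the other TMZ libraries had 1646 to 2153 for Ddx3y. All 9 untreated libraries had 551 to 701 for Ddx3y. Treated libraries 2 and 5 thus differed in these genes from the untreated libraries of the same number. Kdm5d (229 and 170) and Uty (165 and 140), also Y-linked, were not at 0 in TMZ libraries 2 and 5. Both genes were lower there than in the other TMZ libraries. All TMZ libraries also differed in makeup from the untreated ones. Of 10 mast cell and basophil markers, 3 (Fcer1a, Mcpt4 and Tpsb2) were at 0 in each untreated 36N library, and the sum of the 10 was 445 to 1240 without TMZ and 103969 to 291792 with it. The sum of 5 megakaryocyte markers was 41.4 to 90.2 without TMZ and 29072 to 57242 with it, and that of 7 B and plasma cell markers 3399 to 5553 against 141 to 235. The sum of 9 leukemic myeloid markers overlapped, at 54444 to 69455 without and 64659 to 88110 with TMZ. Within that list the homeobox genes Hoxa9 (1591 to 3548 against 475 to 806) and Hoxa10 (577 to 1573 against 24.5 to 59.9) and the elastase gene Elane (20468 to 22201 against 1538 to 3489) were lower with TMZ, while the receptor gene Kit (183 to 577 against 9777 to 17111) and the protease gene Ctsg (2560 to 5606 against 12912 to 23075) were higher. In such bulk samples, fewer cells of a type and less RNA per cell cannot be told apart, and the part of these shifts in the values below was not tested. Among untreated libraries, 36N library 6 had a sum of 8 erythroid markers of 1229, against 48.0 to 202 in the other 36S and 36N libraries, and 36S library 1 had a sum of 8 late neutrophil markers of 65395, against 5567 to 9638 in 36S libraries 2 and 3.

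In 36N cells, Alkbh2 and Mpg were higher and Msh3 and Mlh3 lower with TMZ than without. Alkbh2 moved most, to 3.13 times its untreated level on the scale of log2(value + 1). Mgmt, Alkbh3, Msh6 and Pms2 did not pass the test. Thus 4 of the 8 passed limma-trend at an adjusted p under 0.05, 2 in each direction, in a comparison in which 69.7% of the 14390 genes tested were called, 36.3% as higher and 33.5% as lower. A share of 4 in 8 is no larger than that of genes at large. The median log2 fold change was -0.03 over the 8 genes and 0.06 over all genes tested, and scaling the libraries to equal totals brings the latter to -0.09 while the direction of each of the 8 stays as it was.

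**Figure D1:**
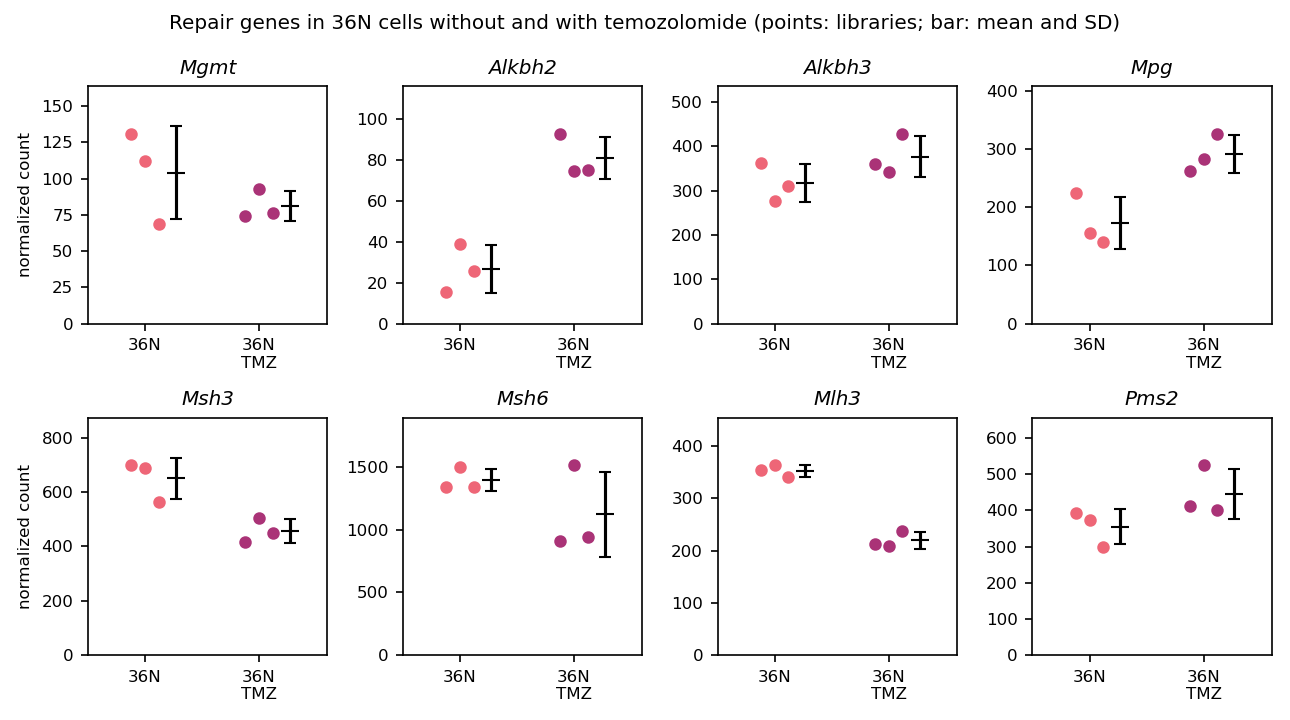
Normalized counts of the 8 genes (vertical axes, linear, from 0) in untreated 36N libraries and in 36N TMZ libraries, numbered 4 to 6, from their shared table; each point is 1 library, and the bar gives the mean and SD. The TMZ points of Alkbh2, Mpg and Pms2 lie above all untreated points, those of Msh3 and Mlh3 below them, and Msh6 in library 5 with TMZ lies at 1516, away from the other treated libraries.

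Upstream sequences of 3 of the genes that passed are shown first, for Alkbh2 and Mpg, which rose, and for Mlh3, which fell. They are from RefSeq on GRCm38.p6 (mm10), read 5′ to 3′ on the strand of the gene. Capitals mark a GC box (GGGCGG, the core bound by SP1-type factors) on either strand. For Alkbh2 and Mlh3 the 250 bases end just before the start of the gene, at chr5:114128219-114128468 (minus strand) and chr12:85270600-85270849 (minus strand). For Mpg, chr11:32226380-32226409 (plus strand) ends 95 bases before the start and lies in an exon of Nprl3. These 30 bases were picked as the stretch of the window with the most GC box letters. Of the 3 GC boxes of the window 2 lie in them, and of its 2 matches to the letters CCAAT 0 do. The printed Mpg letters are thus not comparable with the full windows of the other genes.
Alkbh2: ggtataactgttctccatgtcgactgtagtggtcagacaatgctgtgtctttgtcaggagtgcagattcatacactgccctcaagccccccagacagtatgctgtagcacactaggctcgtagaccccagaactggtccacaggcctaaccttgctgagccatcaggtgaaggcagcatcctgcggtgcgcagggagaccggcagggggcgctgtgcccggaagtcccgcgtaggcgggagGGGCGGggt
Mpg: tttctacactcgccCCGCCCtgtcCCGCCC
Mlh3: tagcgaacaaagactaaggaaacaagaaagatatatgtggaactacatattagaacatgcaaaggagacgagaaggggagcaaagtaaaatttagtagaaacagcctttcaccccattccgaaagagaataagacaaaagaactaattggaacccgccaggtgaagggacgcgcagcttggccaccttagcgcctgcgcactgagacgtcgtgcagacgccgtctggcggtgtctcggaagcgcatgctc

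Within the 250 bases before the start, the GC box occurred 1 time for Alkbh2, 3 times for Mpg and 0 times for Mlh3, and among the other genes 4 times for 1 of the 2 RefSeq starts of Mgmt and 0 times for the other, 5 times for Msh6, 2 times for Pms2 and 0 times for Alkbh3, beside 32.7% of 32851 mouse promoters with at least 1. The letters CCAAT occurred 2 times for Mpg, 1 time for Mlh3, 1 time for Msh6 and 3 times for Pms2 (33.8% of promoters). The window of Msh3 is not reported here. The E-box CACGTG (6.02%) and the GATA letters AGATAA or TGATAA (16.6%) were found in none of these windows. A match here describes the letters and is no evidence of binding.

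Alkbh2 (ENSMUSG00000044339.12, mm10 chromosome 5, 114123926 to 114128218, minus strand) had 15.5, 38.8 and 25.7 normalized counts in untreated 36N libraries 4, 5 and 6. With TMZ the same numbers had 92.8, 74.4 and 75.2. Every treated library lay above every untreated one, and the log2 fold change was 1.65 (SE 0.38, 95% confidence interval 0.76 to 2.53, adjusted p = 0.00551). Per kb of transcript its untreated level, 24.9 ± 10.9 (SD, n = 3), was the lowest of the 8 genes, though not apart from Mgmt (35.9 ± 11.1) beyond the spread. The call held under all 16 alternatives tried.

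Mpg (chromosome 11, 32226505 to 32232700, plus strand) stood at 224, 155 and 139.6 without TMZ and at 263, 283 and 327 with it. The groups did not overlap, the gap being smallest between untreated library 4 and treated library 4. The log2 fold change was 0.77 (SE 0.23, adjusted p = 0.0182, 1.71-fold). It missed the threshold without untreated library 5 (adjusted p = 0.0617), without untreated library 6 (0.0529), without treated library 6 (0.0534) and under quantile normalization (0.0594), in the same direction each time.

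Alkbh3 (chromosome 2, 93980550 to 94010807, minus strand), the other dioxygenase, had 363, 277 and 312 untreated and 360.2, 341 and 429 with TMZ. The groups overlapped, and the log2 fold change of 0.25 (interval -0.16 to 0.66, adjusted p = 0.239) did not pass. Mgmt (chromosome 7, 136894614 to 137130266, plus strand) had 131, 112 and 68.5 untreated and 74.4, 92.8 and 76.3 with TMZ. Its untreated libraries spanned the whole treated range. The log2 fold change was -0.31 (adjusted p = 0.392), and its interval, from -1.03 to 0.41, leaves room for change in either direction.

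Msh3 (chromosome 13, 92211872 to 92355003, minus strand) had 699, 690.0 and 564 untreated and 416, 503 and 449 with TMZ. All treated values lay below all untreated ones. The log2 fold change was -0.51 (SE 0.15, adjusted p = 0.0175), and the call was lost without untreated library 4 (adjusted p = 0.0636), untreated library 5 (0.0720) or treated library 4 (0.0603). Msh6 (chromosome 17, 87975062 to 87990892, plus strand) had 1342, 1499 and 1344 untreated and 907, 1516 and 943 with TMZ. Treated library 5 alone reached the untreated level. With all libraries the log2 fold change was -0.35 (adjusted p = 0.156); without treated library 5, which lacks Ddx3y, it was -0.59 and passed (adjusted p = 0.00525). Library weights also brought Msh6 past the threshold.

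Mlh3 (chromosome 12, 85234520 to 85270599, minus strand) had the smallest spread of the 8 in untreated cells (coefficient of variation 3.20%), with 354, 364 and 341 untreated and 212, 209 and 238 with TMZ. All treated libraries lay well below the untreated ones, and the log2 fold change was -0.68 (SE 0.16, adjusted p = 0.00551), a call kept under all 16 alternatives. Pms2 (chromosome 5, 143909964 to 143933968, plus strand) went the other way in value, from 392, 373 and 300.2 untreated to 413, 526 and 401 with TMZ. Its groups did not overlap, yet the log2 fold change of 0.33 (interval -0.10 to 0.75) did not pass (adjusted p = 0.141). In all, 5 of the 8 genes had groups that did not overlap, beside 74.5% of genes tested.

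Pms2 starts 117 bases from Aimp2, a gene on the opposite strand that is read away from it and encodes a scaffold of the tRNA synthetase complex. With TMZ in 36N cells, Aimp2 fell by 1.20 on the log2 scale (limma-trend adjusted p = 0.000270), from 589.5, 570.1 and 498 to 245, 252 and 220. Pms2 had higher values in every treated library. Between untreated groups, both had log2 fold changes below 0 that did not pass. These were -0.49 (Aimp2) and -0.23 (Pms2) in 36N and -0.59 and -0.52 in KD, each against 36S. Between the TMZ groups they were -0.21 and 0.06. Aimp2 was looked up after the values of the 8 genes had been seen.

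Other genes of these pathways moved in both directions with TMZ in 36N cells, as did genes at large (36.3% called higher, 33.5% lower). Of 16 further mismatch repair genes, 5 rose and 4 fell, with a median log2 fold change of 0.06, equal to that of all genes. The clamp loader subunit gene Rfc2 rose by 2.12, the polymerase delta catalytic subunit gene Pold1 rose by 1.48, and the clamp loader subunit gene Rfc1 fell by 1.39. Of 9 other direct reversal genes, which include partners of ALKBH3 and deubiquitinases that keep it stable, 0 rose and 5 fell (median -0.65). Ascc3, the helicase that opens DNA for ALKBH3, fell by 1.64, the RNA demethylase gene Fto fell by 1.59 and the deubiquitinase gene Usp9x fell by 1.39.

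Of 12 genes that act after a glycosylase, 3 rose and 1 fell (median 0.22), beside 36.3% and 33.5% of all genes tested. Parp2, a sensor of strand breaks, rose by 3.08 and the scaffold gene Xrcc1 rose by 1.04. Of 10 glycosylases other than MPG, 2 rose and 3 fell (median 0.24): Smug1, which removes uracil, rose by 1.09, while Neil2, for oxidised bases, fell by 1.97 and Ung, the main uracil glycosylase gene, fell by 1.26. Of 14 targets of p53, 10 rose and 0 fell, with a median of 1.49; Eda2r (5.46), Gdf15 (4.60) and Phlda3 (2.48) led them. Of 24 S phase genes 8 rose and 5 fell (median 0.18), with Gins2 at 1.85, Mcm2 at 1.80 and Tyms at 1.59, and their summed level was 64242 to 74921 without and 53005 to 71800 with TMZ. Without treated library 5, each of these list counts changed by at most 2 genes. With any 1 of the 6 libraries left out in turn, 2 to 7 S phase genes fell, with 3 or fewer in every fit but that without treated library 5, and 1 to 2 other glycosylases rose, 2 only without untreated library 5 or treated library 5.

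Between untreated 36N and 36S cells, which differ in the GFI1 variant, none of the 8 genes passed the test: 0 were called in either direction, with 1 at an unadjusted p under 0.05. In the same limma-trend fit 4.56% of 13137 genes were called, and 20.4% had an unadjusted p under 0.05. The median log2 fold change was 0.11 over the 8 genes and -0.01 over all genes. The gene with the lowest p was Msh3.

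Msh3 had 321, 401 and 330.2 in 36S libraries 1 to 3 and 498, 491 and 399.8 in 36N libraries 4 to 6. The groups overlapped, since 36S library 2 lay just above 36N library 6. The log2 fold change was 0.40 (interval 0.06 to 0.74, adjusted p = 0.176), and library weights, which count libraries near their group more, brought it past the threshold at 0.34 (adjusted p = 0.0374). Mlh3 was the only member whose groups did not overlap, at 208, 203 and 201 in 36S and 242, 248 and 232 in 36N (log2 fold change 0.24, adjusted p = 0.375); 26.9% of all genes tested had groups that did not overlap.

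Mgmt stood at 86.1, 80.4 and 79.4 in 36S and at 86.0, 73.8 and 44.7 in 36N. Only 36N library 6, the one with the high erythroid sum, lay far from the others. The log2 fold change was -0.31, with an interval from -0.93 to 0.31 that does not show that the groups are alike. Alkbh2 (13.8, 32.1 and 30.9 against 11.6, 29.1 and 19.2) was as variable within a group as between groups, with a log2 fold change of -0.35 and an interval from -1.41 to 0.72. Alkbh3 (270, 274 and 195 against 322, 245 and 275) and Mpg (72.7, 107 and 119 against 153, 106 and 94.7) had log2 fold changes of 0.20 and 0.24. Both had overlapping groups.

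Msh6 was the most even of the 8, with 690.0, 757 and 816 in 36S against 736, 823 and 734 in 36N, a log2 fold change of 0.02 and an interval from -0.24 to 0.28. Pms2 had 332, 259.8 and 294 against 279, 265 and 212 (log2 fold change -0.23, interval -0.61 to 0.14). Over all genes tested, 4.56% were called. In the gene lists set beside the 8 genes, 0 of 16 mismatch repair, 0 of 9 direct reversal and 0 of 12 later base excision genes were called. Among S phase genes 0 of 24 were called, and among p53 targets 0 of 12 tested. The lowest p in these lists belonged to Lig1 (-0.43), Usp7 (0.25), Apex1 (-0.75, adjusted p = 0.0596), Mki67 (-0.35) and Trp53inp1 (0.60). Among the other glycosylases, 1 of 10 was called: Ogg1, which removes oxidised guanine, fell by 1.58 on the log2 scale (128 ± 22.4 in 36N and 380.3 ± 17.6 in 36S, SD, n = 3; limma adjusted p = 0.00185). The S phase sum was 48359 to 56147 in 36N and 59626 to 68507 in 36S. The monocyte sum was 21746 to 31224 and 13869 to 17593, and the sum of 9 leukemic myeloid markers 41172 to 52630 and 71435 to 151374. Within the leukemic list Mpo (14736 to 18760 against 26502 to 77508), Elane, Ctsg, Prtn3 and Kit were lower in 36N. Hoxa9 (1040 to 2331 against 1582 to 1879), Hoxa10, Meis1 and Cd34 overlapped. Within the monocyte list Lyz2, Vcam1 and Adgre1 were higher in 36N. Apoe (391 to 473 against 528 to 1191) was lower, and the rest overlapped. The part of these shifts in the values of the 8 genes was not tested.

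**Figure D2:**
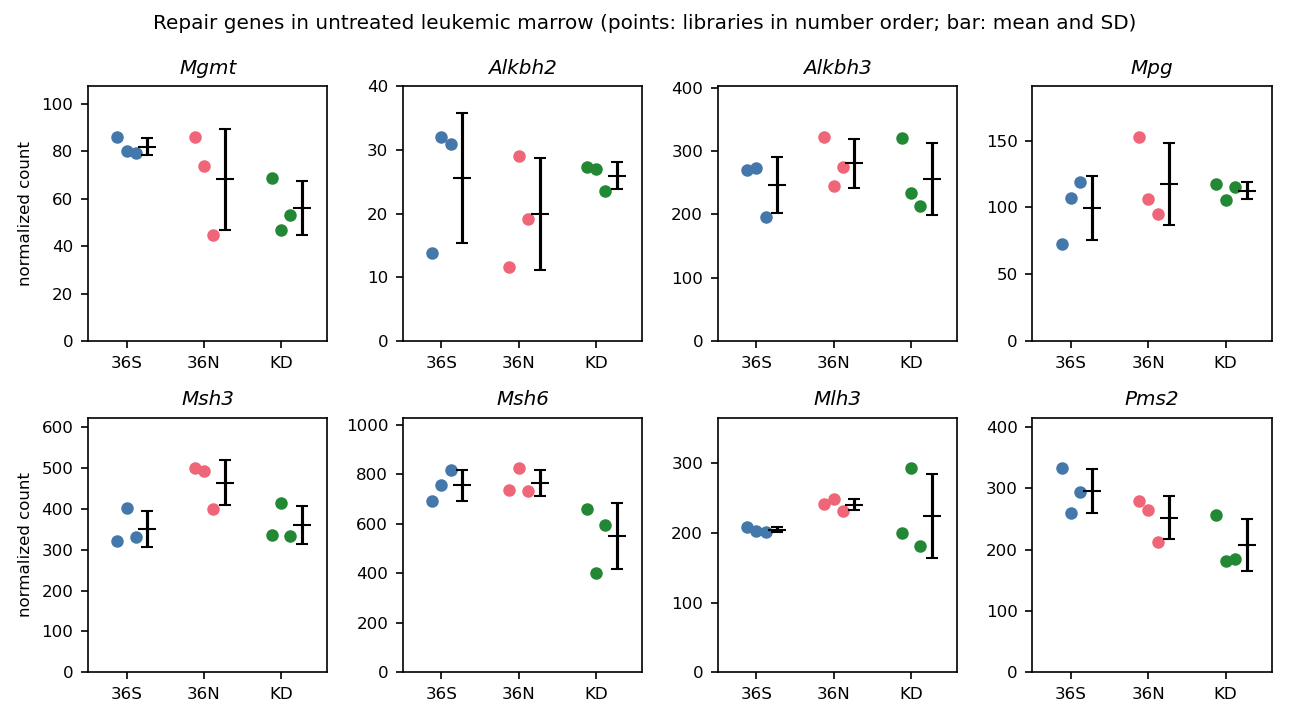
Normalized counts of the 8 genes (vertical axes, linear, from 0) in the untreated 36S, 36N and KD libraries, which were normalized together; each point is 1 library, and the bar gives the mean and SD. Mgmt, Msh6 and Pms2 in KD lie below all 36S points, and Mlh3 in 36N lies above all 36S points.

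KD cells, with little GFI1, had lower values than 36S cells for Mgmt, Msh6 and Pms2, with no overlap of the groups, but no gene of the 8 passed the test. In this comparison 0 of the 8 were called and 3 had an unadjusted p under 0.05, beside 11.5% of 13109 genes called (6.61% higher, 4.86% lower) and 26.5% under 0.05 unadjusted. Groups that did not overlap were found for 3 of the 8, beside 31.5% of genes, so these counts are close to the background. The split of calls depends on the scaling: 57.6% of called genes were higher in KD, and 39.3% when libraries were scaled to equal totals, which moves the median over all genes from -0.01 to -0.13. The same 36S libraries serve here and in the comparison with 36N.

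Pms2 had 257, 181 and 186 in KD libraries 7 to 9 against 332, 259.8 and 294 in 36S. The smallest gap was that between KD library 7 and 36S library 2. The log2 fold change was -0.52 (interval -0.95 to -0.09, adjusted p = 0.120). Msh6 had 658, 399.7 and 594 in KD against 690.0, 757 and 816 in 36S, with KD library 8 far below the others. Its log2 fold change was -0.48 (adjusted p = 0.143), and with library weights it passed at -0.37 (adjusted p = 0.0473). Mgmt had 69.0, 46.7 and 52.9 in KD, all below the 79.4 to 86.1 of 36S. Its log2 fold change was -0.55 (interval -1.10 to -0.00, adjusted p = 0.186).

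The other 5 genes overlapped between KD and 36S. Their log2 fold changes were 0.11 for Alkbh2, 0.05 for Alkbh3, 0.20 for Mpg, 0.04 for Msh3 and 0.10 for Mlh3, and with equal totals those of Alkbh2, Alkbh3, Msh3 and Mlh3 were just below 0. In Mlh3, KD library 8 stood alone at 292, against 181 to 208 in the other libraries of both groups. Over all genes tested, 6.61% were called higher and 4.86% lower. Of the 16 further mismatch repair genes 1 fell, the exonuclease gene Exo1 (-0.89, limma-trend adjusted p = 0.0265), and the list median was -0.29. The polymerase beta gene Polb rose by 0.68 and the endonuclease gene Apex1 fell by 0.77 among 12 later base excision genes. Ogg1 (-1.07) and Neil3 (-0.70) fell among 10 other glycosylases, and 0 of 9 other direct reversal genes passed, Otud4 (-0.43, adjusted p = 0.0603) having the lowest p. With each of the 6 libraries left out in turn, Apex1 was no longer called in 5 fits (every one but that without KD library 8), Exo1 in 4 (without any 36S library or KD library 7), Polb in 4 (without 36S library 1 or 2 or KD library 7 or 9) and Neil3 in 4 (without 36S library 2 or 3 or KD library 7 or 9). Ogg1 was lost without 36S library 2 alone (adjusted p = 0.0527).

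The 24 S phase genes had a median log2 fold change of -0.36 in KD. Of them 0 rose and 4 fell, beside 6.61% and 4.86% of all genes tested. Among those that fell were the replication initiation factor genes Mcm10 (-0.81) and Cdc6 (-0.62) and the thymidine kinase gene Tk1 (-0.63). The summed level of the 24 genes was 45272 to 57427 in KD, below the 59626 to 68507 of 36S. The monocyte sum was 43249 to 67055 in KD against 13869 to 17593, that of 6 mast cell and basophil markers 2608 to 2913 against 819 to 1583, that of 9 T and NK cell markers 379 to 1747 against 127 to 262, and that of 7 B and plasma cell markers 855 to 1113 against 3357 to 6392. The sum of 9 leukemic myeloid markers was 38790 to 49441 against 71435 to 151374. Within that list Mpo (13003 to 16010 against 26502 to 77508) and Elane (8861 to 11020 against 25815 to 46491) were lower in KD, while Cd34 (3932 to 5343 against 2544 to 3402) and Hoxa9 (2156 to 2629 against 1582 to 1879) were higher. These shifts occur in the same comparison as the lower Mgmt, Msh6 and Pms2 values, and their part in those values was not tested. Of 12 p53 targets tested, Btg2 (0.93) and Trp53inp1 (0.72) rose and Cdkn1a (-0.68) fell. In the same 6 fits, 0 to 4 S phase genes fell, with 0 of them called without 36S library 1, 36S library 2 or KD library 9. Cdc6 was lost in 5 fits (every one but that without 36S library 3) and Tk1 in 4 (without any 36S library or KD library 9). Mcm10 and Trp53inp1 were each lost in 3 (without 36S library 1 or 2 or KD library 9) and Cdkn1a in 2 (without 36S library 2 or 3), while Btg2 was called in all 6.

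**Figure D3:**
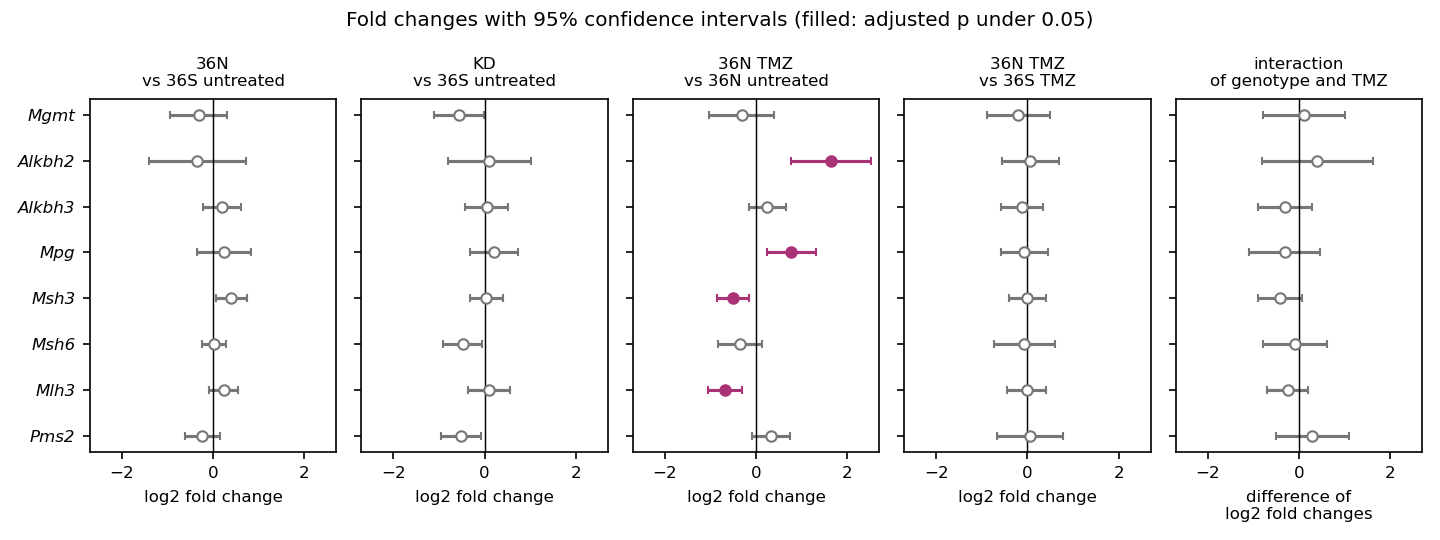
Log2 fold changes of the 8 genes (horizontal axes) in the 4 comparisons, and the difference between the 36N-to-36S fold changes with and without TMZ (right panel), with 95% confidence intervals from limma; filled points have an adjusted p under 0.05. Filled points occur only in the comparison of 36N cells with and without TMZ, for Alkbh2, Mpg, Msh3 and Mlh3.

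After TMZ, no difference between 36N and 36S cells passed the test for any of the 8 genes. None was called, none had an unadjusted p under 0.05 and in each the groups overlapped. Across all 14246 genes 0 were called (0%) by limma-trend, 191 (1.34%) had an unadjusted p under 0.05 and 4.76% had groups without overlap. The log2 fold changes of the 8 ran from -0.20 (Mgmt) to 0.06 (Pms2 and Alkbh2), each with adjusted p = 0.9998. The intervals were wide, from -0.90 to 0.49 for Mgmt and from -0.41 to 0.40 for Msh3.

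Mgmt had 109, 137 and 201 in 36S TMZ libraries 1 to 3 and 116, 144 and 117 in 36N TMZ libraries 4 to 6. Library 3 lay above the rest. Alkbh2 had 102, 83.8 and 116 against 121, 96.2 and 96.1, with the groups interleaved. Mpg had 416, 427 and 623 against 419.6, 448 and 511, and Alkbh3 had 482, 513 and 644 against 486, 456 and 567. In both, library 3 was the highest of the 6. Msh3 had 716, 902 and 831 against 746, 896 and 789.8, and Mlh3 had 401, 348 and 407 against 373, 363 and 410.1. These were even between the groups.

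Msh6 and Pms2 were highest, in both genotypes, in the libraries without Ddx3y. Msh6 had 1823, 2838 and 1564 in 36S TMZ and 1612, 2668 and 1641 in 36N TMZ, and Pms2 had 578, 913 and 395 against 583, 736 and 555. Libraries 2 and 5 were the highest of the 6 for both genes. They also had the highest S phase sums (97211 and 95216, against 71545 to 85829) and the lowest monocyte sums (27397 and 25812, against 52099 to 84402), and the part of either in Msh6 and Pms2 was not tested. Leaving out both libraries, a choice made after the data were seen, gave log2 fold changes of -0.05 for Msh6 and 0.25 for Pms2, and again 0 of the 8 genes were called.

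**Figure D4:**
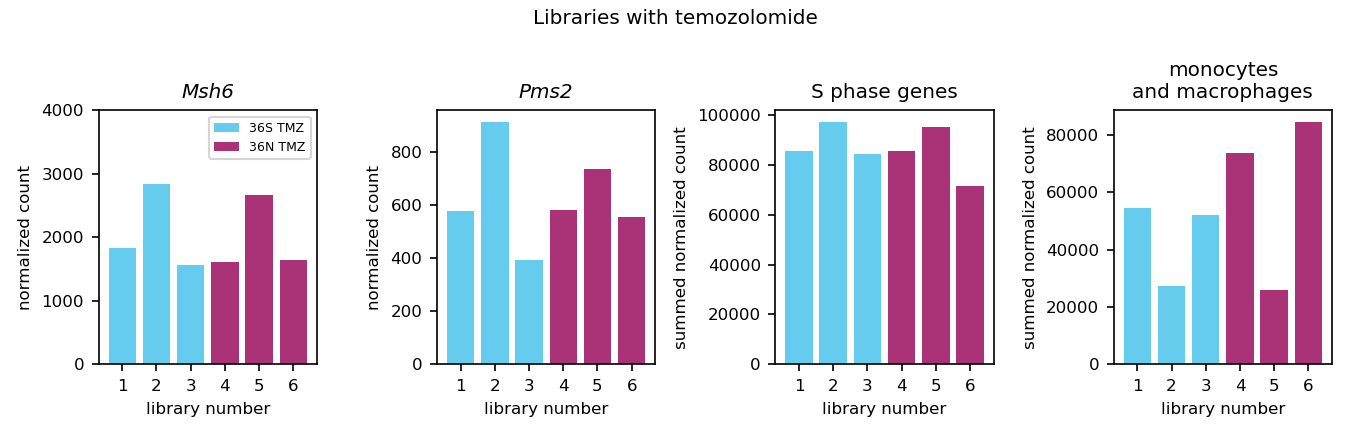
Bars give the normalized counts of Msh6 and Pms2 and the summed normalized counts of 24 S phase genes and 9 monocyte and macrophage markers (vertical axes, from 0) in each TMZ library, numbered 1 to 3 for 36S and 4 to 6 for 36N. Libraries 2 and 5, in which Ddx3y is at 0, have the highest Msh6, Pms2 and S phase values and the lowest monocyte values.

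Whether the 36N-to-36S difference changes with TMZ was tested over the 12 libraries as a difference of fold changes, each taken within its own table. None of the 8 genes was called, and none had an unadjusted p under 0.05, beside 0.281% of 14584 genes called by limma-trend and 6.95% under 0.05 unadjusted. The lowest adjusted p was 0.788, for Msh3, whose difference was -0.41 (interval -0.89 to 0.08). The other 7 lay between -0.31 and 0.40. Of the lists, only the other glycosylases had a gene that passed, Ogg1, and it was no longer called in 9 of the 12 fits that left out 1 library.

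Levels of different genes were compared per kb of the longest transcript. In untreated 36N cells of the table with 36S, the order was Alkbh3 (201), Msh6 (180 ± 11.9), Msh3 (117), Mpg (67.8), Pms2 (45.9), Mlh3 (44.0), Mgmt (23.5) and Alkbh2 (18.6) normalized counts per kb. The SD was 27.7 for Alkbh3, 17.7 for Mpg, 6.40 for Pms2, 1.53 for Mlh3, 7.33 for Mgmt and 8.18 for Alkbh2. The neighbours Alkbh3 and Msh6, Mpg and Pms2, Pms2 and Mlh3, and Mgmt and Alkbh2 thus did not differ beyond their spread. In the table with TMZ, the same libraries gave Msh6 328 and Alkbh3 227, and the order of that pair was turned.

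The turn has a counterpart in the tables. Each untreated 36N library appears in 2 tables, and the ratio of its values in them was not 1 number for all genes. It was 1.13 for Alkbh3, 1.34 for Alkbh2, 1.41 for Msh3 and Pms2, 1.47 for Mlh3 and Mpg, 1.53 for Mgmt and 1.83 for Msh6. Over 12196 genes the ratio had a median of 1.47, with 5 and 95 percentiles of 0.894 and 1.90. For a given gene it varied by only 0.299% (coefficient of variation) between the 3 libraries. The 36N TMZ libraries behaved alike, with ratios from 1.29 (Alkbh2) to 1.78 (Msh3). Each gene thus carries a factor of its own in each table, so levels of different genes, and of 1 gene in different tables, depend on the table, and groups were compared within a table only.

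**Figure D5:**
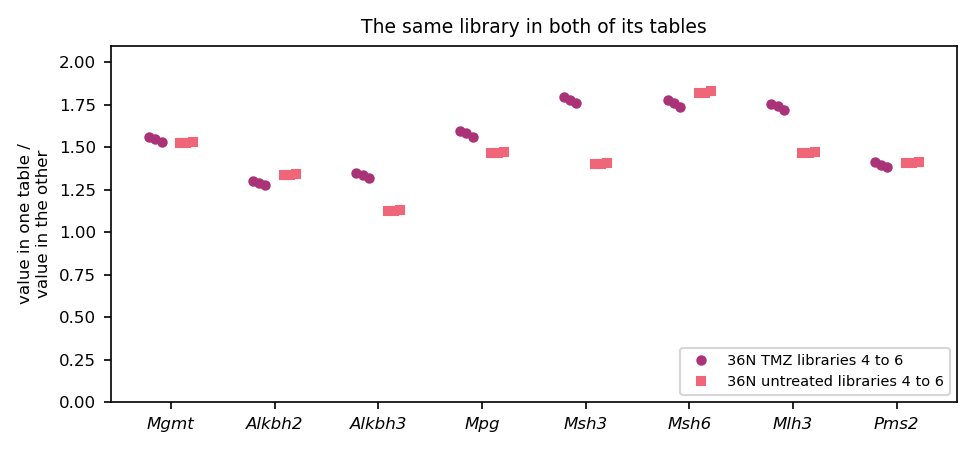
Ratio of the values of the same library in its 2 tables for the 8 genes (vertical axis, linear, from 0): for untreated 36N libraries 4 to 6 the table with TMZ over the table with 36S, and for 36N TMZ libraries the table with 36S TMZ over the table with untreated 36N. The 3 points of a gene nearly coincide, while genes range from 1.13 to 1.83.

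Over the 9 untreated libraries, which share groups and normalization, the genes whose log2 values ran most like those of each member were found among 10184 candidates and are given as a description. For Mgmt they were Nucks1 (Pearson r = 0.984), Gng12 (0.975) and Rrs1 (0.970), and for Pms2 Sgo1 (0.978) and Actn4 (0.964). The best match had r = 0.955 for Mlh3 (Usp32), 0.951 for Alkbh3 (Cfl2), 0.935 for Msh6 (Ift88), 0.924 for Mpg (Iffo2), 0.921 for Msh3 (Zfp704) and 0.861 for Alkbh2 (Naip2). No member was among the 3 best matches of another.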

How the data were processed

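RNA was sequenced from 15 libraries of leukemic bone marrow after poly(A) selection, per the labels. What the authors deposited is a normalized signal, namely normalized counts by gene, in 4 tables with 1 column per library. Salmon, DESeq2 and mm10 are named in the submitters' processing notes, without versions or roles; the sources used here do not give strand or annotation. The 36S values in both untreated tables were identical (largest difference 0). Whole reads were not recovered, since with the best step only 27.4 to 61.7% of low values were whole (tolerance 0.1), so the depth is unknown and no counting interval is given.

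Genes that reached 10 in 3 or more libraries were fitted with limma-trend (limma 3.58.1, R 4.3.3) on log2(value + 1), on the 2 groups of a table or, for the difference of differences, on 12 libraries of 2 tables. Fold changes are on that scale, which understates those of low genes. P-values are two-sided and Benjamini-Hochberg adjusted over all genes tested, with a threshold of 0.05. The fits were tested on simulated data. Positions are from GENCODE and sequences from RefSeq, both on GRCm38. Alternatives were pseudocounts of 0.5 and 5, no filter or one of 50, equal totals, quantile normalization, no trend, robust moderation, library weights, a replicate block and each library left out.

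The 8 genes and the gene lists were chosen with earlier results of these data known. All 8 genes were named in every comparison; from each list at most 3 genes were named, those with the largest absolute log2 fold change among genes that passed, or, with none past it, the 1 gene of lowest p. For each of the 8, the 3 genes with the highest Pearson r were those most like it, among genes with a mean of at least 50 and leaving out unnamed models and pseudogenes. Marker genes were named for their level at 0 or for a shift between groups. Some genes that this rule or the annotation would name are not reported here.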

Additional observations from a re-analysis of the deposited data

Results flagged for a closer look

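Among the genes set beside the 8, Ogg1, which encodes the glycosylase for oxidised guanine, had a 36N-to-36S difference that changed with TMZ. The difference of the log2 fold changes was 1.63 (SE 0.26, limma-trend adjusted p = 0.0264 over 14584 genes). Untreated 36N cells had 128 ± 22.4 normalized counts of Ogg1 and 36S cells 380.3 ± 17.6 (SD, n = 3). In the table of TMZ libraries, which was normalized apart, 36N cells had 299.8 ± 48.9 and 36S cells 287 ± 21.4. Levels without and with TMZ cannot be set against each other across these tables. The call was lost in 9 of the 12 fits that left out 1 library, with the difference at 1.51 to 1.77 in those 12 and the largest adjusted p at 0.107. It was kept without 36N library 6, 36S TMZ library 3 or 36N TMZ library 4. In the table that joins treated and untreated 36N cells, Ogg1 had 183 ± 32.7 without and 209 ± 36.4 with TMZ. The groups overlapped there, and the log2 fold change of 0.19 did not pass (limma-trend adjusted p = 0.468).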

How the results depend on the processing

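For the 8 genes, no call changed direction under any alternative. In 36N cells with against without TMZ, Alkbh2 and Mlh3 passed under all 16 alternatives, Mpg under 12 and Msh3 under 13, and leaving out 1 library at a time gave 2 to 5 called members, the 2 without untreated library 5. Calls over all genes depended more on the libraries. With 1 library left out, 188 to 508 genes were called between untreated 36N and 36S, 591 to 2051 between KD and 36S, 0 to 1 between the TMZ groups and 11 to 39 for the difference of differences. A fit without a trend called 305 genes between untreated 36N and 36S. Library weights called 3304 genes and 1 of the 8 (Msh3) there, 4289 genes and 1 of the 8 (Msh6) in KD, and 119 genes for the difference of differences. Leaving out TMZ libraries 2 and 5, a choice made after the data were seen, left 17 genes called for that difference. The causes were not tested; with a library left out, the fit has fewer samples, and a left-out library leaves its group with 2.

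Log2 fold changes that turned sign were never called. Between KD and 36S, equal totals gave -0.008 for Alkbh2, -0.072 for Alkbh3, -0.081 for Msh3 and -0.016 for Mlh3, and library weights gave -0.234, -0.076, -0.16 and -0.042. Library weights gave -0.02 for Alkbh3 between untreated 36N and 36S, and 0.016 for Mpg, 0.013 for Msh3 and -0.068 for Pms2 between the TMZ groups. Without TMZ libraries 2 and 5, Alkbh2 between the TMZ groups was -0.011 and the difference of differences for Mgmt was -0.028. With 1 library left out, the TMZ groups gave -0.066 to 0.165 for Alkbh2, -0.203 to 0.011 for Alkbh3, -0.404 to 0.036 for Mgmt, -0.084 to 0.028 for Mlh3, -0.171 to 0.119 for Mpg, -0.099 to 0.067 for Msh3, -0.304 to 0.184 for Msh6 and -0.229 to 0.374 for Pms2. KD against 36S gave -0.272 to 0.309 for Alkbh2, -0.126 to 0.168 for Alkbh3, -0.103 to 0.24 for Mlh3, -0.005 to 0.348 for Mpg and -0.065 to 0.138 for Msh3. Untreated 36N against 36S gave -0.043 to 0.079 for Msh6. The difference of differences ran from -0.163 to 0.35 for Mgmt and -0.324 to 0.164 for Msh6.

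The replicate block, for library numbers shared by treated and untreated 36N cells, left 4 of the 8 genes called and 9985 genes in all, and 0 of the 8 and 43 genes for the difference of differences. Deviations of same-numbered libraries correlated at 0.019, 0.037 and 0.086. Libraries 5 and 6 correlated best with their own number and library 4 did not. With 3 libraries per group, these correlations cannot decide whether the numbers pair the samples. For number 5, Ddx3y was at 1094 without and at 0 with TMZ, so the block may join unlike cells there.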
